A study of Mus musculus with 2 samples.

Results

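The genes described here are 10 histone deacetylases, Hdac1 to Hdac9 and Hdac11, found by symbol among the 27999 features of a droplet RNA table from the mouse heart. All 10 were in the table, and all 10 passed the filter on low counts in both fits used below. Cells came from the right ventricle of C57/BL6J pups that were homozygous for floxed CBP (Crebbp), p300 (Ep300) and Trap alleles. AAV9, a virus used to reach heart cells, was given on postnatal day 1 to delete p300 and CBP, and tissue was taken on day 21. Both libraries, called library 1 and library 2 here, carry these same labels, so they form 1 group with no control. No value below compares knockout with control, and the Cre, its promoter, the number of pooled animals and the origin of the GFP feature are not given in the sources used here.

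Histone deacetylases remove acetyl groups from lysines of histones and other proteins, the reverse of what the acetyltransferases p300 and CBP do. Class I enzymes (Hdac1, Hdac2, Hdac3 and Hdac8) are mostly nuclear, and the first 3 of them work inside corepressor complexes. Class IIa enzymes (Hdac4, Hdac5, Hdac7 and Hdac9) have little catalytic activity of their own, bind MEF2 transcription factors and leave the nucleus when kinases phosphorylate them and 14-3-3 proteins hold them. In the mouse heart, class IIa members are known as brakes on MEF2-driven hypertrophic growth. Hdac6 (class IIb) acts on tubulin in the cytoplasm, and Hdac11 is the sole class IV enzyme.

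Library 1 held 12736 barcodes and 57982200 UMIs (transcript molecules counted), and library 2 held 9447 barcodes and 50199793 UMIs. Cell classes were named from marker transcripts that did not include the deacetylases, and 6 classes with at least 50 cells in each library were tested. Cardiomyocyte-like cells were 7074 of 11314 kept cells in library 1 and 2220 of 8348 in library 2. The summed level of 12 cardiomyocyte markers in the other 5 tested classes was 14.4 to 18.7% of the cardiomyocyte-like level in library 1 and 3.14 to 6.27% in library 2. The libraries shared 17 barcodes. They also differed in sex-linked transcripts. In library 1, 92.3% of kept cells with at least 1000 UMIs had Xist UMIs and no UMI of 4 Y-linked genes, against 33.6% in library 2, where 42.3% had Y-linked UMIs and none of Xist. Library 2 thus held cells of at least 1 female and 1 male animal, and cluster 4, which held 1713 of its 2220 cardiomyocyte-like cells, was led by the Y-linked genes Uty, Eif2s3y, Kdm5d and Ddx3y. Most cardiomyocyte-like cells of library 1 lay in clusters 0, 2, 3 and 10.

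Hdac9, Hdac11, Hdac4 and Hdac5 were higher in cardiomyocyte-like cells, taken against the average of the 5 remaining classes, and Hdac7 was lower, in every alternative that could be tested. Of these 4 higher genes 3 are class IIa, and the remaining class IIa gene, Hdac7, is the lower one. In edgeR's quasi-likelihood test with Benjamini-Hochberg adjustment, 5 of the 10 genes were higher in this class and 2 lower at an adjusted p under 0.05, where 32.1% of all 13292 genes tested were higher and 33.8% lower. With so many genes called, a call alone says little about a member, and the sizes of the differences are given for each. Across all 6 classes, 7 of the 10 differed (Hdac2, Hdac3, Hdac4, Hdac5, Hdac7, Hdac9 and Hdac11), against 77.5% of all genes. Levels are given in CPM, the UMIs of a gene scaled to a common total of all UMIs of a class in a library. Their 95% Poisson intervals cover counting error within a library. With library as a block, p-values rest on how far the differences between classes disagree between the 2 libraries. The spread of each gene is drawn toward that of all genes, and the animals of a library are not told apart.

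**Figure D1:**
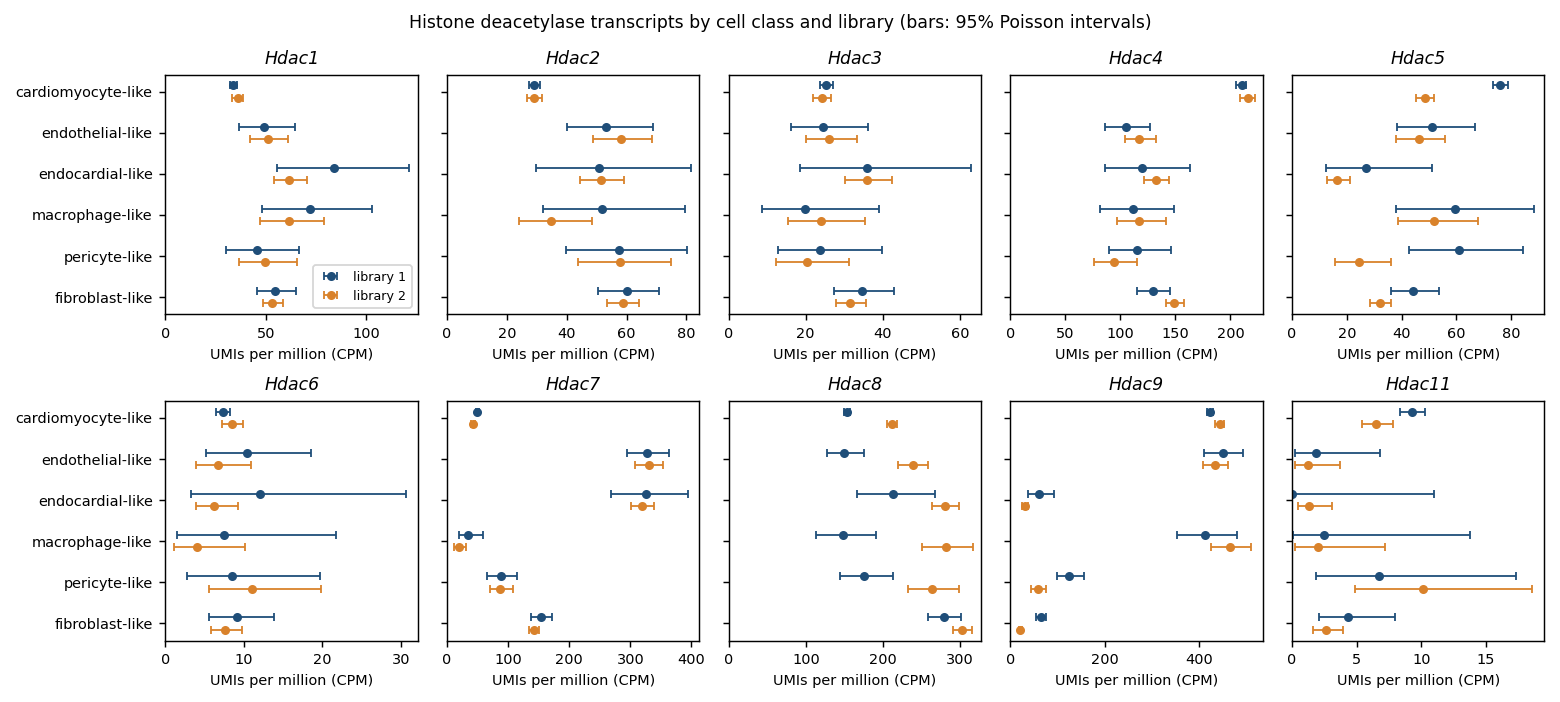
Level of each deacetylase gene (horizontal axis, CPM) in 6 cell classes (vertical axis), with 1 point per library and 95% Poisson intervals. Hdac9 lies above 400 CPM in cardiomyocyte-like, endothelial-like and macrophage-like cells, and Hdac7 lies above 300 CPM in endothelial-like and endocardial-like cells.

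Scaling mattered for these differences. TMM scaling, which sets library sizes so that most genes do not differ between sums, moved the median gene by 0.46 (log2) in the contrast of cardiomyocyte-like cells, and by at most 0.13 in either direction in the other contrasts. Log2 differences below are after TMM, while CPM levels are not scaled this way unless stated. Hdac3, with a log2 difference of 0.32 ± 0.13 (SE, adjusted p = 0.0390, edgeR), was -0.14 on library totals alone. Its cardiomyocyte-like levels were 25.3 CPM in library 1 and 24.1 CPM in library 2, within the 19.8 to 35.9 CPM of the remaining classes, and its levels after TMM, 32.5 and 32.1 CPM, were likewise within theirs (18.0 to 35.4 CPM). The call ended in 7 of 11 alternatives. Hdac8 was likewise 0.12 with TMM and -0.34 without.

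**Figure D2:**
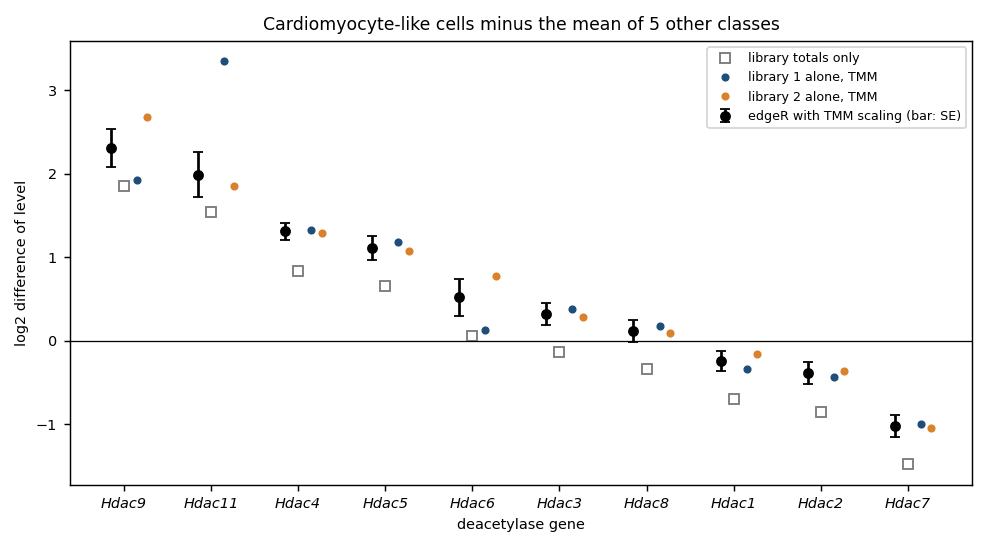
Log2 difference of level between cardiomyocyte-like cells and the mean of 5 other classes (vertical axis) for each deacetylase gene (horizontal axis): black points are the edgeR estimate with its SE, coloured points the estimate in each library alone, and open squares the estimate on library totals without TMM. Hdac9, Hdac11, Hdac4 and Hdac5 lie above 0 and Hdac7, Hdac2 and Hdac1 below 0 in all of them, while Hdac3 and Hdac8 change side with the scaling.

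Hdac9, the class IIa member with the longest gene of the 10 (chr12:34047580-34917095 on the minus strand of GRCm38), was at 423 CPM (417 to 430) in library 1 and 444 CPM (434 to 453) in library 2 in cardiomyocyte-like cells. Endothelial-like cells had 450 (410 to 492) and 434 CPM (408 to 461), and macrophage-like cells had 413 (353 to 481) and 465 CPM (424 to 510). On this scale the 3 classes overlapped. After TMM, cardiomyocyte-like cells had 544 and 591 CPM, above the 427 and 437 CPM of endothelial-like cells and the 374 and 449 CPM of macrophage-like cells, so which class is highest depended on the scaling. Pericyte-like cells had 125 and 57.7 CPM, endocardial-like cells 59.9 and 31.1 CPM, and fibroblast-like cells 65.3 and 21.0 CPM, all apart from the 3 high classes. High Hdac9 was thus found in the pooled endothelial-like class and in macrophage-like cells as well as in muscle cells. The gene 4921508M14Rik overlaps Hdac9 on the same strand, and reads from the shared part cannot be told apart.

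Set against the average of the remaining classes, the log2 difference of Hdac9 was 2.31 ± 0.23 in cardiomyocyte-like cells (SE, adjusted p = 1.01e-06, edgeR), 1.84 ± 0.24 in endothelial-like cells (adjusted p = 4.76e-05) and 1.79 ± 0.26 in macrophage-like cells (adjusted p = 7.93e-05). It was -2.49 ± 0.33 in fibroblast-like cells (adjusted p = 4.67e-05) and -2.38 ± 0.37 in endocardial-like cells (adjusted p = 0.000266). These 5 calls held in all 11 tested alternatives, while that in pericyte-like cells (-1.06 ± 0.33, adjusted p = 0.0344) ended in 4 of 11 and fell to a difference of -0.03 with doublets kept. In the 2 lowest classes, the level of Hdac9 moved between libraries with that of the cardiomyocyte markers found in those cells. In fibroblast-like cells Hdac9 was at 15.4% of its cardiomyocyte-like level in library 1 and 4.72% in library 2, and the cardiomyocyte markers were at 14.4% and 3.46%. In endocardial-like cells Hdac9 was at 14.1% and 7.0%, and the markers at 15% and 3.14%. The part of those transcripts in the low Hdac9 levels was not tested.

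Inside the endothelial class the level was uneven. In library 2, cluster 5, the larger endothelial-like cluster, whose leading genes include Rgcc, had 497 CPM of Hdac9 (466 to 529), close to its 476 CPM (434 to 522) in library 1. Cluster 19, with Vwf among its leading genes, had 238 CPM (177 to 313). Cluster 18, with Sema3g and Gja5 (a gap junction gene of arterial endothelium) among its leading genes, had 30.0 CPM (11 to 65.4) over 77 cells. Lymphatic endothelial-like cells had 34.2 CPM (23.2 to 48.5) in library 2 and 82.3 CPM (41.1 to 147), from 11 UMIs, in library 1, both overlapping the endocardial-like cells. Hdac7, by contrast, was at 315, 438 and 365 CPM in clusters 5, 19 and 18, so the 3 endothelial-like clusters that spanned a wide range of Hdac9 all had high Hdac7. Clusters 18 and 19 had too few cells in library 1 for a second value, and no test was made between clusters. Among classes too small to test, smooth muscle-like cells had 340 CPM of Hdac9 (265 to 430) over 54 cells of library 1 and 473 CPM (324 to 668) over 22 cells of library 2, while epicardial or mesothelial-like cells had 35.1 CPM (14.1 to 72.3), from 7 UMIs, in library 1 and 12.2 CPM (8.45 to 17.1) in library 2.

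**Figure D3:**
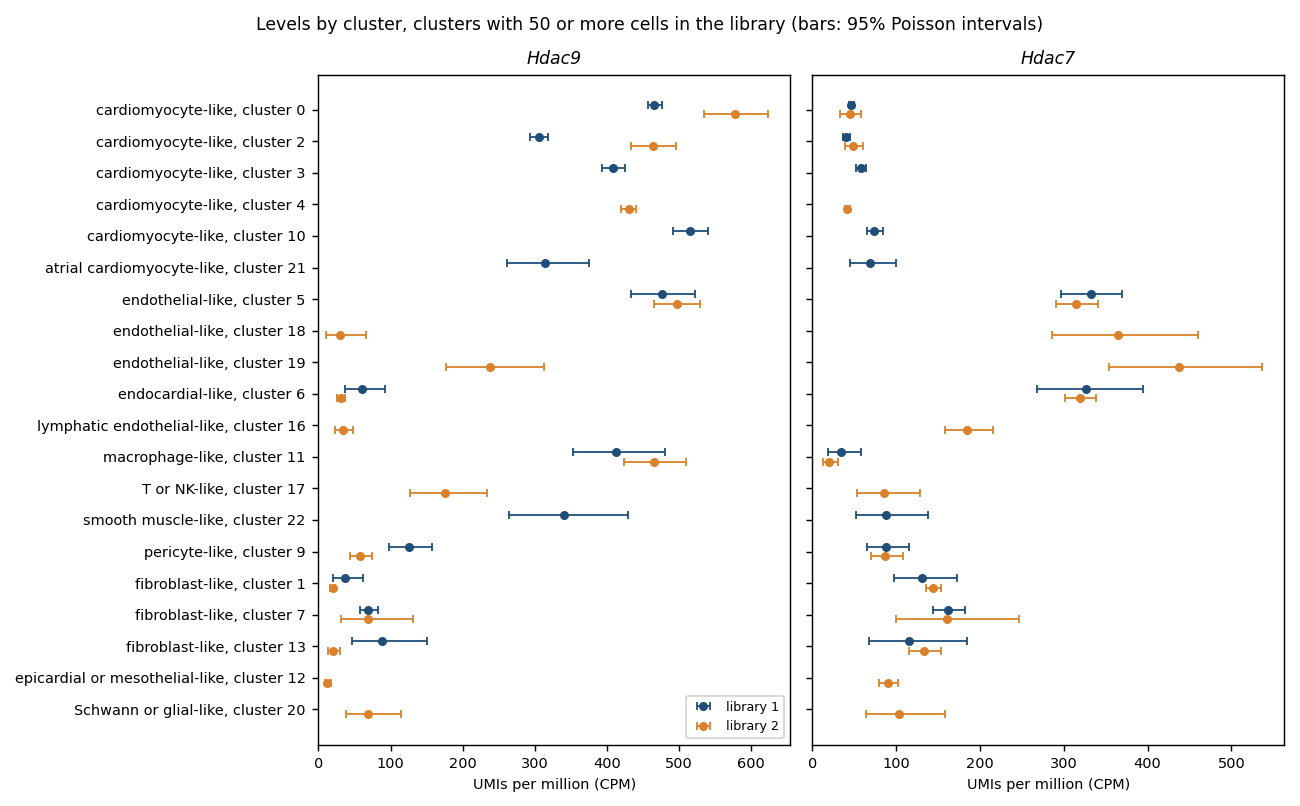
Level of Hdac9 (left) and Hdac7 (right) in CPM (horizontal axis) by cluster (vertical axis), with 1 point for each library that holds 50 or more cells of the cluster and 95% Poisson intervals. In library 2 the endothelial-like clusters 5, 19 and 18 have 497, 238 and 30.0 CPM of Hdac9 and 315, 438 and 365 CPM of Hdac7.

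Cardiomyocyte-like clusters also differed in Hdac9. In library 1 the level was 306 CPM (294 to 318) in cluster 2, led by Nppb and Ankrd1, which encode a natriuretic peptide and a stretch-responsive protein of the sarcomere. It was 409 CPM (393 to 425) in cluster 3, 466 CPM (457 to 476) in cluster 0 and 516 CPM (492 to 541) in cluster 10. The atrial cardiomyocyte-like cluster 21 had 314 CPM (261 to 375) over 74 cells. In library 2, cluster 2 had 464 CPM (434 to 496), cluster 0 had 578 CPM (535 to 624) and cluster 4 had 431 CPM (420 to 441). Within cluster 4, cells with Y-linked UMIs only had 355 CPM (343 to 368) and cells with Xist UMIs only had 624 CPM (598 to 651). It held 1017 of the 1046 cardiomyocyte-like cells of library 2 with Y-linked UMIs only. Cluster and animal therefore cannot be told apart where cluster 4 is set against the others. Cluster 2 lay below cluster 0 in Hdac9 in both libraries, with intervals apart. Hdac4 in cluster 2 was 203 and 184 CPM against 225 and 221 CPM in cluster 0. Its intervals overlapped in library 2, at 165 to 205 CPM in cluster 2 and 195 to 250 CPM in cluster 0.

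RefSeq (GRCm38.p6) lists 2 start windows for Hdac9, each 300 bases from 250 before a start to 50 after it. They are shown because Hdac9 had the largest difference of the class IIa genes in cardiomyocyte-like cells, and because MEF2 factors, which class IIa proteins bind, recognise letters that were searched for here. Capitals mark TATTTTTA or TATTTATA, searched on both strands, which 4.30% of all 32851 such windows hold. The outer window, chr12:34917046-34917345, has no match and no CpG, and the inner one, chr12:34528840-34529139, has 1 match and 3 CpG. The 3' counts do not tell from which start a transcript began.
Hdac9 outer window: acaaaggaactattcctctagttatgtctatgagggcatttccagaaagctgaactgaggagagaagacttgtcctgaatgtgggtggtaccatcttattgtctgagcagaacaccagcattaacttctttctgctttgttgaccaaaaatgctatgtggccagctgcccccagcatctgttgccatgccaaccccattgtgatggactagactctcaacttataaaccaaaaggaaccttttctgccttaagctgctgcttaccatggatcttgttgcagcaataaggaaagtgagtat
Hdac9 inner window: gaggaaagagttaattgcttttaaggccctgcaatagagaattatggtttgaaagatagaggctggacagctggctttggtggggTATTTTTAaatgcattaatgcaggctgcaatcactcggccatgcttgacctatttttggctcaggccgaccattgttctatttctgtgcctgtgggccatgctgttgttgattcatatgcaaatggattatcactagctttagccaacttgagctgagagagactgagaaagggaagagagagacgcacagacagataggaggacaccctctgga
Hdac5 also had 1 match in its window, chr11:102230123-102230422, while the window of Hdac4, chr1:92180292-92180591, had none and neither did the 4 windows listed for Hdac7. The 4 windows printed are on the minus strand and are printed in the direction of transcription.
Hdac5 window: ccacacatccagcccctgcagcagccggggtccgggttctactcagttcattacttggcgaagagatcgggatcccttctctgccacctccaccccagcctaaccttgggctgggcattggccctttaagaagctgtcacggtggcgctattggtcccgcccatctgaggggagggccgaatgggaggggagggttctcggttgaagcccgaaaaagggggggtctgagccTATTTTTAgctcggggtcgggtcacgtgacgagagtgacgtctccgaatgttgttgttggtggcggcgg
Hdac4 window: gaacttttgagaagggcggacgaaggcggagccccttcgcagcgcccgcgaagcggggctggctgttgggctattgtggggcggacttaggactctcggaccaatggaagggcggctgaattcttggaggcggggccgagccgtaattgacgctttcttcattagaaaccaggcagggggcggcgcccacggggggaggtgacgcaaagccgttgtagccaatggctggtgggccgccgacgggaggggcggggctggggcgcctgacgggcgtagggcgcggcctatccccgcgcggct
A match is a run of letters and not a site of binding. The Hdac4 and Hdac5 windows held 32 and 18 CpG and were 68.0% and 60.7% G or C, while the Hdac9 windows were 44.0% and 45.3% G or C.

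Hdac4, the class IIa member that carries kinase signals to MEF2 in muscle, spans chr1:91928779-92195699. In cardiomyocyte-like cells it was at 210 CPM (205 to 214) in library 1 and 216 CPM (209 to 222) in library 2. The other 5 tested classes lay between 94.1 and 149 CPM, so none of them overlapped the cardiomyocyte-like cells. Among classes too small to test, Schwann or glial-like cells had 172 CPM (82.3 to 316) in library 1 and 246 CPM (182 to 324) in library 2. Both intervals overlapped those of cardiomyocyte-like cells. The other untested classes had 52.3 to 167 CPM, some with intervals that overlapped too. The log2 difference in cardiomyocyte-like cells was 1.31 ± 0.10 (SE, adjusted p = 1.28e-07, edgeR), with 1.33 in library 1 and 1.29 in library 2. Hdac4 thus had the smallest disagreement between libraries among the genes that were higher in cardiomyocyte-like cells. Pericyte-like cells, at 115 and 94.1 CPM, were lower by -0.50 ± 0.14 (adjusted p = 0.0198), a call that ended in 3 of 11 alternatives. Gm26720 overlaps Hdac4 on the opposite strand, and since the use of strand in counting is not given, reads of the 2 cannot be told apart there.

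Hdac5, whose loss in mice is known to sensitise the heart to hypertrophic stress, spans chr11:102194432-102230166. In cardiomyocyte-like cells it was at 75.9 CPM (73.2 to 78.7) in library 1 and 48.5 CPM (45.4 to 51.8) in library 2. Macrophage-like cells had 59.4 and 51.7 CPM, endothelial-like cells 51.1 and 46.3 CPM and pericyte-like cells 60.9 and 24.3 CPM, and all 3 overlapped that range. After TMM the values of these 3 did not, with 97.6 and 64.6 CPM in cardiomyocyte-like cells and at most 57.0 CPM in the other tested classes. Intervals after TMM still overlapped in library 2, at 60.5 to 69.0 CPM in cardiomyocyte-like and 37.3 to 65.4 CPM in macrophage-like cells. Endocardial-like cells, at 26.9 and 16.6 CPM, were the lowest of the 6 classes. Among classes too small to test, smooth muscle-like cells had 112 CPM (70.9 to 168) of Hdac5 in library 1 and 29.6 CPM (3.58 to 107) in library 2. Epicardial or mesothelial-like cells had 80.2 CPM (45.8 to 130) and 43.8 CPM (36.4 to 52.3). The other untested classes had 15.4 to 68.6 CPM. The log2 difference was 1.11 ± 0.14 in cardiomyocyte-like cells (SE, adjusted p = 1.41e-05, edgeR) and -1.31 ± 0.23 in endocardial-like cells (adjusted p = 0.000766), the second of which ended at a clustering resolution of 2 (-0.54, adjusted p = 0.293). Hdac5 was lower in library 2 than in library 1 in each of the 6 classes, a difference that was not tested because each library is a single sample.

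Hdac7, the class IIa gene needed in the mouse for intact embryonic blood vessels, spans chr15:97792664-97844502. In endothelial-like cells it was at 328 CPM (294 to 364) in library 1 and 330 CPM (308 to 354) in library 2. Endocardial-like cells had 326 and 319 CPM. Fibroblast-like cells followed with 154 and 142 CPM, pericyte-like cells with 87.9 and 87.1 CPM, cardiomyocyte-like cells with 49.4 and 42.8 CPM and macrophage-like cells with 34.6 and 19.9 CPM. From the endocardial-like cells down, the values of each class in the 2 libraries were apart from those of the next. Intervals overlapped between the 2 lining classes. They also did so in library 1 between cardiomyocyte-like (47.3 to 51.7 CPM) and macrophage-like cells (18.9 to 58.1 CPM). The log2 difference was 1.89 ± 0.11 in endothelial-like cells (SE, adjusted p = 1.75e-08, edgeR) and 1.81 ± 0.12 in endocardial-like cells (adjusted p = 7.32e-08). It was -1.02 ± 0.13 in cardiomyocyte-like cells (adjusted p = 1.19e-05) and -2.64 ± 0.20 in macrophage-like cells (adjusted p = 1.49e-07), and these 4 calls held in all 11 alternatives. Smaller calls in fibroblast-like cells (0.42 ± 0.12, adjusted p = 0.0165) and pericyte-like cells (-0.46 ± 0.15, adjusted p = 0.0453) ended in 3 and 7 of 11. Both Hdac7 and Hdac9 were therefore called higher in endothelial-like cells, while endocardial-like cells had higher Hdac7 and lower Hdac9, and macrophage-like cells had higher Hdac9 and lower Hdac7. Lymphatic endothelial-like cells, too few to test, had 217 CPM (145 to 311) in library 1 and 185 CPM (158 to 215) in library 2, below the blood-vessel and endocardial values in library 2. Slc48a1 overlaps Hdac7 on the opposite strand.

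Over the 5 classes other than cardiomyocyte-like, 7 of the 50 pairs of member and class were higher and 7 lower, against 17.6% and 12.9% of all such pairs of gene and class. By class, the shares of all genes called higher and lower were 18.7% and 11.6% in endothelial-like, 17.1% and 11.1% in endocardial-like, 19.7% and 15.1% in fibroblast-like, 20.4% and 16.5% in macrophage-like and 12.2% and 10.1% in pericyte-like cells. Of these 14, Hdac7 and Hdac9 made up 10.

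The class I genes Hdac1 and Hdac2, the paired catalytic subunits of the Sin3, NuRD and CoREST complexes, had their lowest CPM in cardiomyocyte-like cells, though after TMM the levels of both overlapped those of other classes (43.3 and 47.8 CPM of Hdac1 against 42.7 to 75.9 CPM, and 37.5 and 38.9 CPM of Hdac2 against 33.6 to 58.5 CPM). Hdac2 had 29.2 CPM there in both libraries, and the other classes had 34.8 to 60.1 CPM. Its log2 difference was -0.39 ± 0.13 (SE, adjusted p = 0.0140, edgeR), lost with no filter on low counts (-0.19, adjusted p = 0.419) and with no library block (adjusted p = 0.0537). Hdac1 had 33.7 and 35.9 CPM in cardiomyocyte-like cells, against 45.6 to 83.8 CPM elsewhere. Its log2 difference of -0.24 ± 0.12 did not pass (adjusted p = 0.0972, edgeR), but was -0.70 on library totals alone (adjusted p = 0.000245). Hdac3, the enzyme of the NCoR/SMRT complex, is given above with the scaling it depends on. Endocardial-like cells had 35.9 CPM of Hdac3 in both libraries, and its difference there of 0.44 ± 0.17 did not pass (adjusted p = 0.0621, edgeR).

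Hdac8, an X-linked class I enzyme known to deacetylate the cohesin subunit SMC3, spans chrX:102284639-102505359. In cardiomyocyte-like cells it was at 153 CPM (149 to 157) in library 1 and 212 CPM (205 to 218) in library 2. Fibroblast-like cells had 279 and 303 CPM. The log2 difference in fibroblast-like cells was 0.37 ± 0.13 (SE, adjusted p = 0.0459, edgeR) and ended in 4 of 11 alternatives. Hdac8 was higher in library 2 than in library 1 in each of the 6 classes, again without a test. The F test across classes did not pass for Hdac8 (adjusted p = 0.110) or for Hdac1 (adjusted p = 0.0851).

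The 2 remaining genes were near the limit of detection in the smaller classes. Hdac11, on chr6:91156665-91174692, was in cardiomyocyte-like cells at 9.28 CPM (8.34 to 10.3) in library 1, from 359 UMIs, and 6.53 CPM (5.42 to 7.79) in library 2, from 123 UMIs. Pericyte-like cells had 6.76 and 10.1 CPM, from 4 and 10 UMIs, and endocardial-like cells had 0 UMIs in library 1, which allows up to 8.98 CPM at the limit of 3 counts, and 1.34 CPM in library 2. The log2 difference was 1.99 ± 0.27 in cardiomyocyte-like cells (SE, adjusted p = 2.07e-05, edgeR), with 3.35 in library 1 and 1.85 in library 2, and it held in all 10 alternatives that tested it. The size of the library 1 value depends on the small count that the fit adds to the endocardial-like sum of 0 UMIs. In pericyte-like cells it was 1.69 ± 0.48 (adjusted p = 0.0225) and ended in 2 of 10. Gm14573 overlaps Hdac11 on the opposite strand. Hdac6, the X-linked tubulin deacetylase, had 7.34 and 8.49 CPM in cardiomyocyte-like cells and 3.98 to 12 CPM elsewhere, from 3 to 64 UMIs per sum, and its F test across classes did not pass (adjusted p = 0.257, edgeR).

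Genes that work with the deacetylases were read from lists of partners, and the same fit was used for all of them. Their counts in cardiomyocyte-like cells stand against 32.1% of all genes higher and 33.8% lower. Among MEF2 factors, 2 of 3 genes tested were higher in cardiomyocyte-like cells, Mef2d by 1.29 ± 0.10 (log2, SE, adjusted p = 1.48e-07, edgeR) and Mef2a by 0.36 ± 0.11 (adjusted p = 0.0124), and Mef2c was not called (adjusted p = 0.998). The median of the 3 was 0.36, against -0.06 over all genes. In endothelial-like cells Mef2d was higher by 0.44 ± 0.12, while Mef2c (0.36 ± 0.13, adjusted p = 0.0617) and Mef2a (-0.07 ± 0.12) were not called. In macrophage-like cells Mef2c and Mef2a were higher by 1.61 ± 0.13 and 0.97 ± 0.11. All 3 were lower in fibroblast-like cells, with Mef2c at -1.91 ± 0.16 (15.1% of all genes were lower there), and all 3 were lower in endocardial-like cells, with Mef2c at -0.86 ± 0.15 (11.1% of all genes were lower there). In pericyte-like cells, where Hdac9 was also called lower, Mef2c was higher by 0.81 ± 0.13 and Mef2d lower by -0.41 ± 0.14 (adjusted p = 0.0474).

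Of 16 kinases known to phosphorylate class IIa deacetylases or related to such kinases, 6 were higher and 6 lower in cardiomyocyte-like cells, with a median of 0.05, a share in each direction near that of all genes. The higher ones were led by Camk2a (3.83 ± 0.26, log2, SE), Camk2d (1.72 ± 0.11), the main calcium/calmodulin kinase II of the heart, Camk2b (1.43 ± 0.28) and Prkd1 (1.16 ± 0.16). The lower ones were led by Prkd2 (-3.52 ± 0.18), Camk4 (-3.35 ± 0.94), Camk1d (-1.68 ± 0.19) and Prkd3 (-1.50 ± 0.12). In endothelial-like cells 3 of the 16 were higher, Prkd2 (3.06 ± 0.13), Prkd1 (2.94 ± 0.16) and Prkd3 (0.56 ± 0.11), all protein kinase D genes, and Camk1d was lower (-0.50 ± 0.18). Of all genes 18.7% were higher there and 11.6% lower, so the share of kinases called higher was near that of all genes. In endocardial-like cells Camk4 (2.76 ± 0.42), Prkd2 (2.15 ± 0.15) and Prkd3 (0.37 ± 0.12) were higher, and Camk2a (-2.19 ± 0.63) and Camk2g (-0.40 ± 0.13) lower, where 17.1% of all genes were higher and 11.1% lower. In macrophage-like cells Camk1d (2.30 ± 0.15), Camk1 (1.13 ± 0.17) and Sik1 (1.08 ± 0.29) were higher, and Prkd1 (-2.42 ± 0.31), Sik3 (-1.25 ± 0.15), Prkd2 (-0.69 ± 0.23) and Camk2d (-0.41 ± 0.14) lower. There 20.4% of all genes were higher and 16.5% lower. All kinases named here passed at an adjusted p under 0.05 in edgeR.

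Of 7 genes for 14-3-3 proteins, 6 were lower in cardiomyocyte-like cells and Ywhag was higher (0.91 ± 0.10, log2, SE, adjusted p = 4.39e-06, edgeR), with a median of -0.83. Sfn (-1.87 ± 0.62), Ywhah (-1.57 ± 0.13), Ywhab (-1.50 ± 0.14) and Ywhaq (-0.83 ± 0.12) led the lower ones. In endothelial-like cells 6 of the 7 were higher and none lower, against 18.7% and 11.6% of all genes, led by Sfn (2.92 ± 0.49), Ywhab (0.95 ± 0.14), Ywhah (0.75 ± 0.13) and Ywhaq (0.69 ± 0.11). Subunits of class I complexes were divided, with 8 of 33 higher and 10 lower in cardiomyocyte-like cells and a median of 0.05, shares below those of all genes. Rcor2 (2.80 ± 0.31), Rcor3 (0.92 ± 0.10), both CoREST subunits, Suds3 (0.60 ± 0.11) and the Hdac3 corepressor Ncor1 (0.60 ± 0.12) led the higher ones. The NuRD genes, some of which went each way, included Chd3 (-2.11 ± 0.17), Mbd3 (-1.38 ± 0.24), Gatad2a (-1.09 ± 0.13) and Mta2 (-0.94 ± 0.17), which led the lower ones, and Chd4 (0.59 ± 0.13) and Rbbp7 (0.56 ± 0.11), which were higher. Among sirtuins and Hdac10, 4 of 8 were higher and 2 lower, against 32.1% and 33.8% of all genes, and 3 of the higher ones, Sirt3 (2.02 ± 0.17), Sirt5 (1.52 ± 0.14) and Sirt4 (1.31 ± 0.18), act in mitochondria. Hdac10, a relative of Hdac6, was lower (-1.04 ± 0.18, adjusted p = 0.000197). Without TMM the split over all the partner lists was 13 higher and 37 lower, in place of 21 higher and 24 lower.

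The next question was whether cardiomyocyte-like cells with a GFP UMI differed from those without one. A GFP UMI was seen in 17.4% of cardiomyocyte-like cells of library 1 and 22.9% of library 2, at median depths of 4638 and 7344 UMIs, against 0.705% and 0.521% of fibroblast-like cells, at 1832 and 3066 UMIs. A cell without a GFP UMI may still hold GFP transcripts. Each cell with a GFP UMI was matched with 1 of like depth without it from the same library, giving 1231 pairs in library 1 and 509 in library 2.

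Hdac9 was the 1 gene of the 10 called, and it was lower with a GFP UMI. Its level was 385 CPM (373 to 398) with a GFP UMI and 447 CPM (433 to 461) without in library 1, and 392 CPM (375 to 408) with and 484 CPM (466 to 503) without in library 2. The log2 difference was -0.29 ± 0.07 (SE, adjusted p = 0.00183, edgeR with library as a block), a change of -18.2%, with -0.22 in library 1 and -0.37 in library 2. The intervals were apart in both libraries. Of all 12622 genes tested, 1.77% were lower and 0.594% higher. The fit has 1 residual degree of freedom, and its spread was taken from all genes together, with hardly any weight on that of Hdac9 itself. The call was lost with DESeq2 (adjusted p = 0.508), with no library block (adjusted p = 1.00), with no matching (-0.19, adjusted p = 0.0601) and with at least 2 GFP UMIs required (-0.30, adjusted p = 0.192). The direction was the same in all 12 alternatives tested.

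Other measures also differed between the GFP groups. The mix of cardiomyocyte clusters differed, with cluster 0 at 46.3% with a GFP UMI and 52.4% without, and cluster 2 at 26.0% with and 21.4% without in library 1. Matched within clusters, Hdac9 differed by -0.28 (adjusted p = 0.00218, edgeR). Atrial markers summed to 122 CPM with a GFP UMI and 521 CPM without in library 1, and leaving out the atrial-led cluster gave -0.30 (adjusted p = 0.00610). In library 2, where Hdac9 also differed with sex-linked transcripts, 45.8% of cells with a GFP UMI and 47.5% of those without had Y-linked UMIs and no Xist. Matched within those kinds of cell, an alternative chosen after seeing the data, Hdac9 was at 288 CPM (268 to 310) with a GFP UMI and 411 CPM (386 to 437) without in the 233 pairs with Y-linked UMIs. In the 158 pairs with Xist UMIs it was at 544 CPM (509 to 580) with and 602 CPM (564 to 641) without. The difference over library 1 and these 2 sets was -0.32 and did not pass (adjusted p = 0.0674, edgeR).

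**Figure D4:**
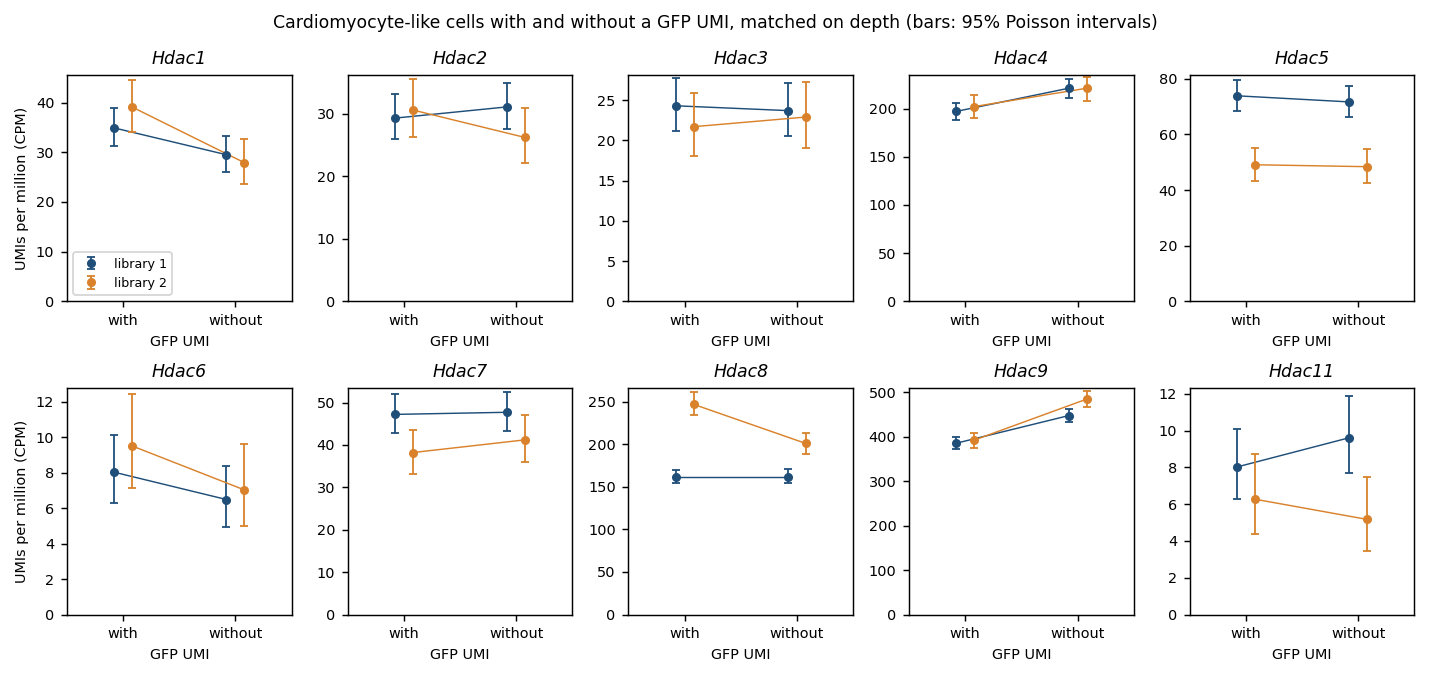
Level of each deacetylase gene (vertical axis, CPM) in cardiomyocyte-like cells with (left) and without (right) a GFP UMI, matched on depth within each library, with 95% Poisson intervals. Hdac9 is lower with a GFP UMI in both libraries, at 385 against 447 CPM in library 1 and 392 against 484 CPM in library 2.

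The other 9 genes were not called, and edgeR called 0 of the 10 higher, as DESeq2 did. At an unadjusted p under 0.05 there were 3, 1 higher (Hdac1) and 2 lower (Hdac4 and Hdac9), where 11.5% of all genes passed, 4.60% higher and 6.88% lower. Hdac1 was at 34.9 and 39.1 CPM with a GFP UMI and 29.5 and 27.9 CPM without in libraries 1 and 2, a log2 difference of 0.32 (95% interval 0.09 to 0.54, adjusted p = 0.134, edgeR). Hdac4 was at 197 and 202 CPM with and 221 CPM without in both libraries, a log2 difference of -0.18 (-0.32 to -0.04, adjusted p = 0.204). Hdac8 was at 162 CPM with and without in library 1, and at 247 CPM with and 201 CPM without in library 2. Its difference of 0.11 did not pass (adjusted p = 0.592), but without matching it was 0.24 (adjusted p = 0.0130). The 95% interval of the log2 difference was -0.17 to 0.19 for Hdac5 and -0.22 to 0.25 for Hdac2, which bounds what these sums could show. Ep300 and Crebbp, the genes named in the knockout label, had differences of 0.08 (-0.07 to 0.23) and 0.10 (-0.03 to 0.23), and 3' counts do not show whether exons were deleted. The partner lists had 8 (sirtuins and Hdac10), 33 (class I complexes), 3 (MEF2), 15 (kinases) and 6 (14-3-3) genes tested by GFP UMI. Among them Prkd1 was the single gene called, at -0.28 ± 0.08 (adjusted p = 0.0238, edgeR), where 1.77% of all genes were lower and 0.594% higher.

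In library 2, cells with Y-linked UMIs and no Xist UMI were then set beside cells with Xist UMIs and no Y-linked UMI, which come from different animals of 1 library. Hdac9 in cardiomyocyte-like cells was 356 CPM (344 to 369) in 1046 cells with Y-linked UMIs and 574 CPM (555 to 593) in 771 cells with Xist UMIs, a log2 difference of -0.69 and a ratio of 1.61. Of the 5819 genes at 20 CPM or more, 2.87% were lower by at least 1.5-fold and 0.842% higher. Of the members, Hdac6 and Hdac11 were under that floor, and Hdac9 alone of the rest differed by at least 1.5-fold. Within cluster 4, which holds both kinds of cell, the levels were 355 CPM (343 to 368) in 1017 cells and 624 CPM (598 to 651) in 362 cells. Library 1, whose cells mostly carry Xist UMIs, had 423 CPM, between the 2 values.

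The same comparison went the other way in macrophage-like cells. Hdac9 was 649 CPM (570 to 736) in 129 cells with Y-linked UMIs and 291 CPM (239 to 351) in 129 cells with Xist UMIs, where 10.8% of 6885 genes were higher by at least 1.5-fold and 13.2% lower. Endothelial-like cells had 460 CPM (417 to 505) with Y-linked UMIs and 445 CPM (398 to 497) with Xist UMIs, with overlapping intervals. Hdac8 was 216 CPM (206 to 225) with Y-linked UMIs and 191 CPM (181 to 203) with Xist UMIs in cardiomyocyte-like cells, but 277 (260 to 295) and 336 CPM (314 to 358) in fibroblast-like cells. Hdac5 in fibroblast-like cells was 25.5 CPM (20.6 to 31.2) with Y-linked UMIs and 40.2 CPM (33.0 to 48.4) with Xist UMIs. Hdac2 in cardiomyocyte-like cells was 32.5 CPM with Y-linked UMIs and 23.4 CPM with Xist UMIs. These are cells of 1 library with an unknown number of animals, so no test was made, and sex and animal cannot be told apart. A GFP UMI was seen in 22.3% of the cardiomyocyte-like cells with Y-linked UMIs and 20.5% of those with Xist UMIs.

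**Figure D5:**
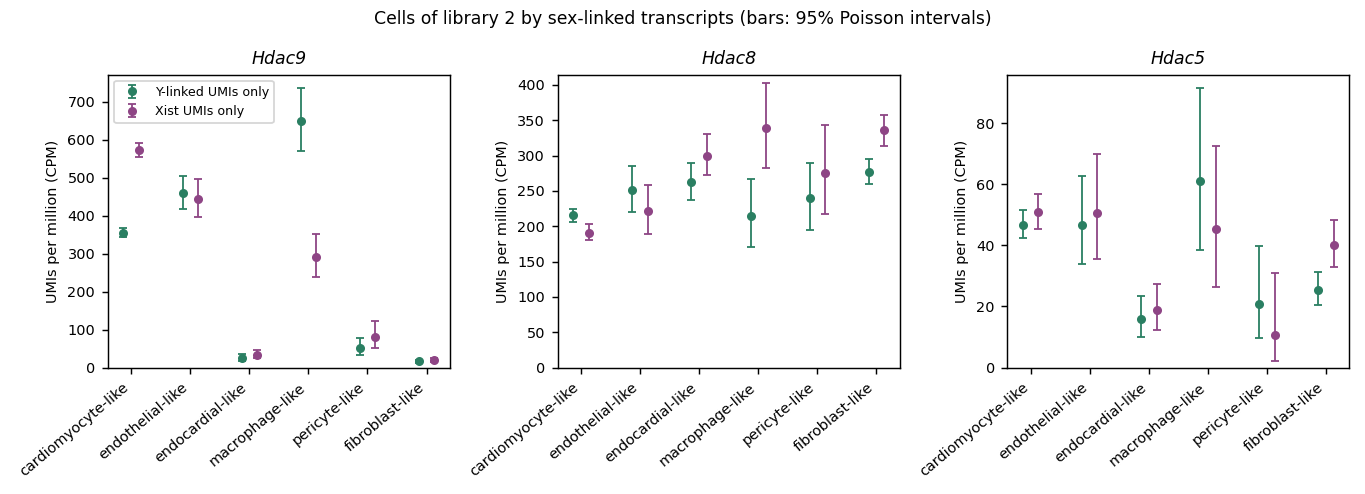
Level (vertical axis, CPM) of Hdac9, Hdac8 and Hdac5 by cell class (horizontal axis) in cells of library 2 with Y-linked UMIs only (left in each pair) and with Xist UMIs only (right), with 95% Poisson intervals. Hdac9 is at 356 against 574 CPM in cardiomyocyte-like cells and at 649 against 291 CPM in macrophage-like cells.

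Genes whose log2(CPM + 1) followed each member most closely over the 12 class sums were listed as a description. The sums share libraries and, within a class, depth, so no p is given. For Hdac9 these were Qk (Pearson r = 0.951), Mmd (0.901), 1810013L24Rik (0.887), Zfand5 (0.873) and Arhgef37 (0.869). Qk encodes the splicing regulator Quaking. Hdac7 was followed by Gm43278 (0.967), Npr1 (0.962), which encodes a natriuretic peptide receptor, and Fam171a2 (0.959). Hdac4 was followed by Pclo (0.954), Nme5 (0.946) and Nsmaf (0.924), and Hdac5 by Gpr157 (0.895), Tsc22d4 (0.884) and Gm26899 (0.871). The nearest genes were Pcyox1 for Hdac1 (0.989), Saal1 for Hdac2 (0.949), Kcnma1 for Hdac3 (0.928), Lias for Hdac6 (0.879), Fam188a for Hdac8 (0.928) and 0610038B21Rik for Hdac11 (0.961).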

How the data were processed

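The table holds whole-number UMI counts for each gene in each barcode, deposited without normalization. Per the file headers, Cell Ranger 6.0.0 made these counts. Build GRCm38 (mm10) and the tools fastp, Trimmomatic, Seurat and edgeR are listed, with no role, in the submitters' processing notes. The sources used here do not give the use of strand or introns in counting. The last digit of a barcode, 1 or 2, was taken as the number in the sample's title. The 10 genes and the partner lists were chosen with earlier results of these data known.

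From these counts, cells with at least 500 UMIs, 200 genes and at most 25% mitochondrial counts were kept, and doublets were removed with a score from 2 simulated doublets per cell, which marked 10.45% and 10.48% of the barcodes scored. The 19662 kept cells were clustered (Leiden, resolution 1, 25 clusters) without the deacetylases and their partners, and clusters were named from fixed markers. The naming thresholds were set after the data were seen, and 13.5% and 0.851% of cells stayed unnamed. Counts were summed per library and class and tested with edgeR 4.0.16 (quasi-likelihood, TMM, filterByExpr) in R 4.3.3, with library as a block, since all classes of a library come from 1 suspension. The class fit had 12 sums and 5 residual degrees of freedom, and the GFP fit had 4 sums. Steps in Python 3.11.15 used scikit-learn 1.9.0 and leidenalg 0.10.2. Both fits were tested on simulated data in which 200 genes were changed. At 1.5-fold the class fit recovered 19.5% of them and the GFP fit 56.5%. At 2-fold they recovered 82.0% and 85.0%, so small differences can fail to pass. In the real counts the class fit called far more genes, 65.9% of 13292 in either direction in cardiomyocyte-like cells. Hdac3 was called there at 1.25-fold and Hdac2 at 1.31-fold. Whether the recovered shares hold for the real counts was not tested. Of each partner list, up to 4 genes per direction with the largest called differences are named. Mef2 genes that were not called and the NuRD genes Chd4 and Rbbp7 were added after their values were seen. DESeq2 1.42.0 and other settings were alternatives. Poisson intervals of levels cover counting error only, while intervals of log2 differences by GFP UMI come from the SE of the edgeR fit.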

Additional observations from a re-analysis of the deposited data

Results flagged for a closer look

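In cells of library 2, Hdac9 differed between cells with Y-linked UMIs only and cells with Xist UMIs only in opposite directions in 2 classes, by -0.69 (log2) in cardiomyocyte-like cells and by 1.15 in macrophage-like cells. Hdac8 differed by 0.17 in cardiomyocyte-like cells, by -0.27 in fibroblast-like cells and by -0.66 in macrophage-like cells. In each of these the 95% Poisson intervals of the levels were apart. Large differences were common in macrophage-like cells, where 13.2% of 6885 genes were lower by at least 1.5-fold and 10.8% higher. The difference between the classes was not tested, since all values come from 1 library.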

How the results depend on the processing

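In cardiomyocyte-like cells the 5 members called higher became 3 with cells thinned to 1000 UMIs (Hdac3 was lost and Hdac11 could not be tested there), and the 2 called lower became 4 without TMM and 1 with no filter on low counts or with no replicate block. The 7 lower pairs in the remaining classes became 4 with no replicate block and 4 at a clustering resolution of 2. Without TMM, Hdac3 in cardiomyocyte-like cells changed to -0.14 and Hdac8 to -0.34, the partner lists gave 13 higher and 37 lower, and all genes gave 2653 higher and 6785 lower, in place of 4273 and 4488. By GFP UMI, the 1 member called lower became 0 with DESeq2, no replicate block, no matching, at least 2 GFP UMIs, and matching within cell sets (chosen after seeing the data), and no matching called 1 higher. Over all genes, the 75 higher and 224 lower by GFP UMI became 3 and 18 with DESeq2, 0 and 0 with no replicate block, 235 and 415 with no matching, 157 and 340 with 3 matched cells, 2 and 31 with at least 2 GFP UMIs, 41 and 148 without the atrial-led cluster, and 15 and 63 within cell sets. The lower genes were 129 without TMM. Uncalled GFP differences that changed sign were Hdac2 (-0.01) and Hdac5 (-0.02) within cell sets, Hdac3 (0.14) and Hdac11 (0.14) with at least 2 GFP UMIs, and Hdac11 (0.03) matched within clusters. The causes were not tested. With 1 library left out there is no test, and Hdac9 in cardiomyocyte-like cells was then 1.92 to 2.68 and Hdac9 by GFP UMI -0.37 to -0.22. Depth limits Hdac6 and Hdac11 most, which had under 25 UMIs in many sums.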
